A study of Mus musculus with 3 samples.

Results

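The genes described here are 38 genes of antioxidant defence, thioredoxin chemistry and iron handling, measured in mouse regulatory T cells. They were chosen by name: each is a gene in the GENCODE M21 gene tables whose symbol is on the list, and all 38 were found among 55536 annotated genes, of which 22028 are protein-coding. The list goes by function, from thioredoxins to ferritins, and its rule uses no measured value. The transcription factor Foxp3 defines regulatory T cells, a kind of CD4 T cell whose task is to hold back immune responses.

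PolyA-selected RNA was sequenced from a single sample of regulatory T cells that had been through inflammation. They came from 1 male adult mouse donor of 16 weeks and the strain Foxp3GFP-DTRCD4CreERT2R26tdTomato. By its name, that strain joins green fluorescent protein and the diphtheria toxin receptor to Foxp3, places a tamoxifen-activated Cre under Cd4, and adds a tdTomato reporter at the Rosa26 locus. The labels used here do not say what caused the inflammation, or whether tamoxifen or toxin was given. The 3 libraries are technical replicates 1, 2 and 3 of 1 biological replicate, called library 1, library 2 and library 3 below, and they form 1 group with no control. Levels could therefore be described, and tests were limited to differences among these libraries. Their p-values measure the spread between technical libraries and say nothing of the spread between mice.

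Libraries 1, 2 and 3 held 20996194, 18456254 and 17535472 expected counts in the first of 2 gene tables and 6339932, 5775622 and 5056487 counts in the second. Levels are in TPM, a unit of abundance scaled for transcript length and depth, and each ± is the SD over the 3 libraries (n = 3). The labelled cell type was matched by its markers. All 8 T cell genes looked at, Foxp3 among them, were above 1 TPM in each library, with a summed level of 5939 to 6772 TPM. Markers of other cells were also present, with lower sums, although single globin genes such as Hbb-bs, at 494 ± 129 TPM, exceeded several of the T cell genes. The sum over 9 erythroid genes was 1392, 1098 and 1755 TPM, nearly all of it globin, and Klf1 was under 1 TPM in each library. The sum over 10 macrophage genes was 90.9 to 107.8 TPM, with Vsig4 at 0 in libraries 1 and 2. The sum over 4 B cell genes was 67.2 to 77.8 TPM, and of 4 granulocyte genes none reached 1 TPM in each library and Mpo was at 0.

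Cells meet reactive oxygen with layered enzymes. Superoxide dismutases turn superoxide into hydrogen peroxide, and catalase, glutathione peroxidases and peroxiredoxins remove the peroxide. The thioredoxin and glutathione systems return the oxidised enzymes to their reduced form with electrons from NADPH. The transcription factor NRF2, the product of Nfe2l2, drives many of these genes and is held down by Keap1. Free iron turns peroxide into more damaging radicals, so iron is stored in ferritin, taken up through the transferrin receptor and exported by ferroportin. Iron regulatory proteins bind hairpins called iron-responsive elements: in the 5′ untranslated region they block translation, and in the 3′ untranslated region they protect the message.

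The iron genes are the clearest case where the transcript itself carries the control, so their hairpins are shown first. The most abundant coding transcript of each gene (GENCODE M21, mm10) was searched for the loop CAGTGN flanked by 5 paired bases on each side with an unpaired C on the 5′ side of the stem. Such a match was found in the 5′ untranslated region of Fth1 and Ftl1, the heavy and light chains of ferritin, and of Slc40a1, which is ferroportin. Tfrc, the transferrin receptor, held 4 matches in its 3′ untranslated region. Capitals mark the loop, and each sequence is written 5′ to 3′ on the transcript's strand.
Fth1, chr19:9982732-9982760, plus strand: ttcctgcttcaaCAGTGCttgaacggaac
Ftl1, chr7:45459779-45459807, minus strand: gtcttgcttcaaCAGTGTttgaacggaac
Slc40a1, chr1:45925465-45925493, minus strand: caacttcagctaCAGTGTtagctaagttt
Tfrc, chr16:32631219-32631247, plus strand: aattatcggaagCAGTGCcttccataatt
Tfrc, chr16:32631598-32631626, plus strand: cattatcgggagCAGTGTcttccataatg
Tfrc, chr16:32631663-32631691, plus strand: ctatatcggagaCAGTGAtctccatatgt
Tfrc, chr16:32631710-32631738, plus strand: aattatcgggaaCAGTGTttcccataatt

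The same search found a match in the 5′ untranslated region of 15 of 10836 coding transcripts (0.138%) and in the 3′ untranslated region of 65 (0.5999%), with 155 (1.43%) holding one anywhere. Keap1 also had a match inside its coding sequence, at chr9:21233750-21233778 on the minus strand. A match is a description of letters in the transcript, not evidence of binding.

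A second sequence feature shared by several of the genes is the codon for selenocysteine, the selenium amino acid that sits in the active site of many redox enzymes. It is written TGA, which elsewhere ends translation. An in-frame TGA before the annotated stop was found in 28 of 10836 coding transcripts (0.258%), taking the most abundant coding transcript of each gene, and in 6 of the 38 genes by that rule. Gpx1 is added from its second most abundant transcript. They are shown because the place of the codon sets the enzymes apart: it is next to the end of the coding sequence in the thioredoxin reductases Txnrd1 and Txnrd2 and in Selenok, and inside it in the others. Capitals mark the codon, with 12 bases on each side of it.
Txnrd1, chr10:82896025-82896051, plus strand: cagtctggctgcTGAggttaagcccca
Txnrd2, chr16:18477760-18477786, plus strand: gtgactggttgcTGAggctaagtcacc
Gpx1, chr9:108339439-108339465, plus strand: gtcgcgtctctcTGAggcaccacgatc
Gpx4, chr10:80054725-80054751, plus strand: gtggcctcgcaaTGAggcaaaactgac
Selenof, chr3:144590633-144590659, plus strand: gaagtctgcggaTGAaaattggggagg
Selenow, across an exon junction on chromosome 7, minus strand: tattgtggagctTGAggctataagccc
Selenok, across an exon junction on chromosome 14, plus strand: atggctggtggaTGAggaaggtaaatg

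The TGA was codon 498 of 500 in Txnrd1-201, 526 of 528 in Txnrd2-203 and 92 of 95 in Selenok-201. In the peroxidases it was codon 47 of 202 in Gpx1-201 and codon 33 of 158 in Gpx4-207. In Selenow-201 it was codon 13 of 89, and in Selenof-202 codon 93 of 122. The leading Gpx1-204 held no such codon.

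The promoters were read for the core of the antioxidant response element, the site through which NRF2 acts. The letters searched were TGACNNNGC on either strand, in 250 bases before to 50 after the transcription start (RefSeq, GRCm38.p6, which has the coordinates of mm10). A promoter was given for 33 of the 38 genes, and 7 of those held a match (21.2%), against 3781 of 27025 genes in the same table (14.0%). The 7 are shown with the match in capitals, each on the strand of its gene.
Prdx1, chr4:116685456-116685484, plus strand: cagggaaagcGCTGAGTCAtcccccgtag
Txnrd1, chr10:82859104-82859132, plus strand: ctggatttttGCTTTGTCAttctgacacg
Gclm, chr3:122245413-122245441, plus strand: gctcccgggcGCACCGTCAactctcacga
Srxn1, chr2:152105542-152105570, plus strand: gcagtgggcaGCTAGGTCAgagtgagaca
Nfe2l2, chr2:75704885-75704913, minus strand: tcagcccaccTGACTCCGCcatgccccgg
Sod1, chr16:90220696-90220724, plus strand: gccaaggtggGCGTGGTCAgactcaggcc
Selenok, chr14:29968326-29968354, plus strand: gttacttgtgTGACTGGGCggaacctcta

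In Prdx1, Txnrd1, Gclm, Srxn1 and Sod1 the core is on the opposite strand, so the capitals read as GCNNNGTCA. The match began 133 bases before the start in Prdx1, 134 in Gclm, 92 in Txnrd1, 56 in Sod1, 44 in Selenok and 240 in Nfe2l2, and 28 bases after it in Srxn1. The level of the 7 genes spanned most of the list's range, from Gclm at 3.54 ± 0.91 TPM to Prdx1 at 539 ± 48.9 TPM. A match in these letters does not show that the factor binds there, and a promoter without one says only that the letters are not in this window.

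As a set the 38 genes were well expressed. Together they held 10003, 9753 and 9490 TPM, or 1.00%, 0.975% and 0.949% of all TPM in libraries 1, 2 and 3. Their median level was 93.4 TPM, beside 25.9 TPM over the 10436 protein-coding genes with at least 1 TPM in each library, and 29 of the 38 lay above that second median. The 38 were chosen with earlier results of these data known. The 71 genes of the further pathway lists described below had a median of 21.8 TPM, those under 1 TPM included. In each library, 16 of the 38 reached at least 100 TPM, as did 1461 protein-coding genes, and 9 ranked within the top 500 by mean level. In bulk RNA, fewer cells carrying a transcript and less of it in each cell cannot be told apart. At the low end, 37 of 38 genes had 1 TPM or more in each library and only Nqo1 did not.

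**Figure D1:**
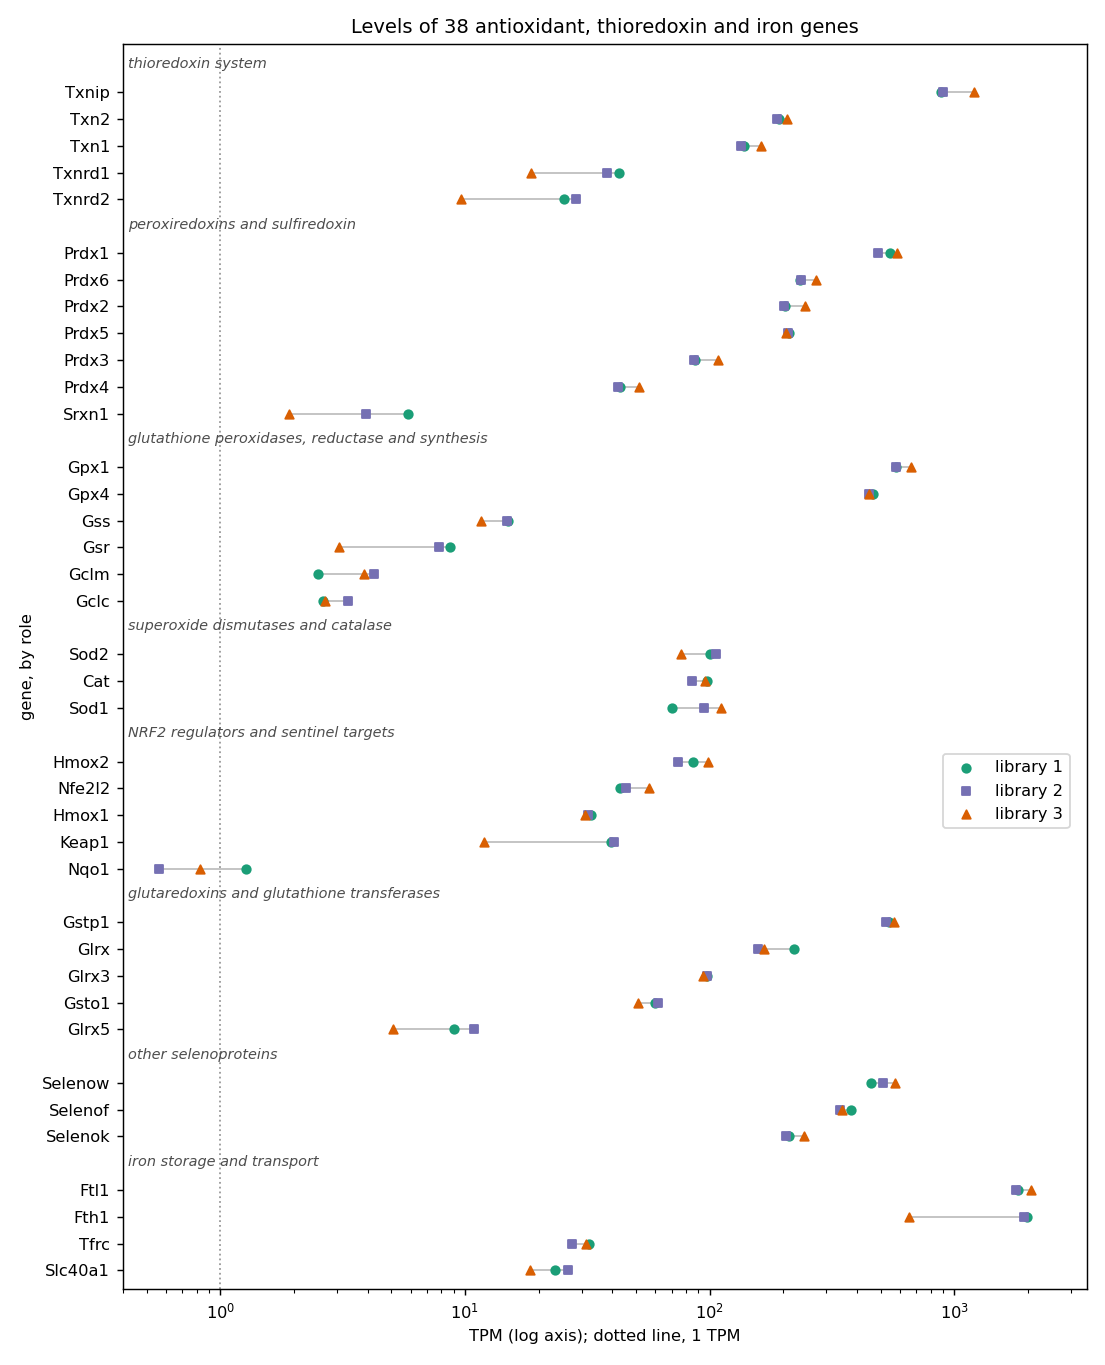
Level of each of the 38 genes in TPM on a log axis, grouped by role, with library 1 as circles, library 2 as squares and library 3 as triangles; the dotted line is 1 TPM. The ferritin chains and Txnip are highest, Nqo1 is lowest at 0.56 to 1.28 TPM, and library 3 lies far to the left for Fth1, Txnrd1, Txnrd2, Keap1 and Gsr.

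The iron genes led the list through ferritin. Ftl1, the light chain that supports iron deposition, was at 1823, 1782 and 2049.6 TPM in libraries 1, 2 and 3, and ranked 40 among protein-coding genes by its mean of 1885 ± 144 TPM. Fth1, the heavy chain with the ferroxidase centre, was at 1988, 1919.95 and 653 TPM, and ranked 55. Both lie in coding genes of the annotation, Ftl1 at 45457944 to 45459884 on chromosome 7 and Fth1 at 9980598 to 9985098 on chromosome 19 (mm10). The libraries were within 1.15-fold for Ftl1 and split for Fth1, where library 3 was far below the others. Ferritin as a whole made up 38.1%, 37.95% and 28.5% of the TPM of the 38 genes.

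The other iron genes were modest. Tfrc was at 32.0, 27.5 and 31.1 TPM and Slc40a1 at 23.3, 26.3 and 18.5 TPM, so that uptake and export transcripts stood near each other and below ferritin in each library. Slc40a1 is also a gene of iron-recycling macrophages. Of the 10 macrophage markers, 8 reached 1 TPM in each library. Among these 8, Csf1r was at 14.2 ± 1.93 TPM, C1qa at 15.4 ± 1.20, C1qb at 21.2 ± 1.45 and Spic at 4.50 ± 0.41. Vsig4 and Cd163 were under 1 TPM in each library, with Cd163 at 0.89, 0.3 and 0.61 TPM. The part of macrophages in the Slc40a1 level was not tested. The erythroid sum was lowest in library 2 and highest in library 3, the order that Ftl1 also had. The T cell marker sum had that order too, at 6248, 5939 and 6772 TPM. The part of erythroid cells in the ferritin levels was not tested.

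In the thioredoxin system the transcript of the inhibitor far exceeded those of the thioredoxins. Txnip, whose protein binds reduced thioredoxin and also restrains glucose uptake, was at 883, 895 and 1208 TPM and ranked 95 (chromosome 3, 96557957 to 96561883). Txn1, the cytosolic thioredoxin, was at 138, 134 and 163 TPM, and Txn2, the mitochondrial form, was at 192, 189 and 208 TPM. The log2 ratio of Txn1 to Txnip was -2.67, -2.73 and -2.89, a mean of -2.76 ± 0.11, so Txnip was the higher in each library by more than the spread between libraries.

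Of the enzymes that reduce the thioredoxins, Txnrd1 in the cytosol was at 42.6, 37.9 and 18.6 TPM and Txnrd2 in mitochondria at 25.5, 28.4 and 9.60 TPM. Both were lowest in library 3. Their ratio moved less than either gene, with log2 values of 0.72, 0.41 and 0.89. The mean of 0.67 ± 0.24 did not reach the limit of 1 set for calling a pair different.

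The peroxiredoxins, which use thioredoxin to reduce peroxides, were all transcribed, and Prdx1 was the highest. Prdx1, mainly cytosolic, was at 547.7, 487 and 583 TPM. The cytosolic Prdx2 was at 203, 202 and 246 TPM, Prdx5, found in several compartments, at 212, 209 and 205 TPM, and Prdx6, which draws on glutathione, at 235, 235 and 273 TPM. The mitochondrial Prdx3 averaged 94.2 ± 12.5 TPM and the endoplasmic reticulum form Prdx4 45.7 ± 5.14 TPM.

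Library 3 was the highest for Prdx1, Prdx2, Prdx3, Prdx4 and Prdx6 and the lowest for Prdx5, and in each of the 6 the highest library was at most 1.254-fold above the lowest. Prdx2 is abundant in red cells, and the erythroid marker sum was likewise highest in library 3, as was the T cell marker sum. The part of red cells in the Prdx2 level was not tested. Srxn1, the sulfiredoxin that repairs overoxidised peroxiredoxins, was low at 5.83, 3.93 and 1.91 TPM.

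Among glutathione enzymes the peroxidases were high and the synthesis enzymes low. Gpx1, the general peroxidase, was at 579.8, 578 and 665 TPM. Gpx4, which reduces lipid peroxides in membranes, was at 467, 449 and 447 TPM. Gsr, the glutathione reductase, was at 8.66, 7.83 and 3.06 TPM and Gss, the synthetase, at 15.1, 14.9 and 11.7 TPM. The catalytic and modifier subunits of glutamate-cysteine ligase were lower again. Gclc was at 2.62, 3.32 and 2.69 TPM and Gclm at 2.52, 4.26 and 3.85 TPM, and neither was the higher in every library.

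The value of Gpx4 carries a mapping uncertainty. A transcribed pseudogene, Gpx4-ps2, matches it at 99.7% identity over 687 bases and received 967, 960 and 1007 counts, so that near-identical copies held 24.7%, 27.5% and 27.3% of the count of Gpx4 itself. Ftl1 had 7 such copies with 2.23% to 3.07% of its count. Of the 38 genes, 12 shared at least 200 bases at 95% identity or more, on either strand, with another annotated gene. Fth1 did not.

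The dismutases and catalase lay close together. Sod1, the copper-zinc enzyme of the cytosol, was at 69.9, 95.1 and 110.9 TPM, and Sod2, the manganese enzyme of mitochondria, at 100.6, 106.1 and 76.4 TPM. Sod1 was lowest in library 1 and Sod2 lowest in library 3, so their log2 ratio changed sign between libraries, at -0.52, -0.16 and 0.53. Cat, the peroxisomal catalase, was at 97.2, 84.4 and 96.0 TPM. Gpx1 exceeded Cat in each library, with a mean log2 ratio of 2.70 ± 0.12.

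Among the NRF2 genes, the factor and its inhibitor were both expressed while one of its best known targets was nearly silent. Nfe2l2 was at 42.8, 45.6 and 56.7 TPM. Keap1, which hands NRF2 over for degradation, was at 39.4, 40.6 and 11.95 TPM, close to Nfe2l2 in libraries 1 and 2 and well below it in library 3. Nqo1, a quinone reductase commonly used as a readout of NRF2, was at 1.28, 0.56 and 0.83 TPM, from 25, 10 and 15 counts. Its promoter was given and held no match to TGACNNNGC in the window.

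Heme oxygenases release iron from heme. The inducible form Hmox1 was steady at 32.6, 31.8 and 31.0 TPM and the constitutive form Hmox2 was at 85.6, 74.6 and 98.5 TPM. Hmox1 is also high in macrophages that recycle heme, and their part in it was not tested. The log2 ratio of Nqo1 to Hmox1 was -4.13 ± 0.26. Hmox2 overlaps Cdip1, which shares 274 bases with it. The whole of Cdip1 held 103% to 159% of the count of Hmox2, and how much of that came from the shared bases is not known. The level of Hmox2 depends on how reads of the shared bases were divided between both genes.

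Of the glutaredoxins and glutathione transferases, Gstp1, the pi-class transferase, was at 542, 526 and 566 TPM and Gsto1, the omega-class enzyme, at 59.98, 61.4 and 51.0 TPM. Glrx, the cytosolic glutaredoxin, was at 221, 158 and 166 TPM, with library 1 apart. Glrx3, which handles iron-sulfur clusters in the cytosol, had the smallest chi-square of the list and stood at 97.4, 97.5 and 94.1 TPM. Glrx5, its mitochondrial counterpart, was at 9.01, 10.9 and 5.08 TPM. Glrx3 exceeded Glrx5 by a mean log2 ratio of 3.44 ± 0.48, with all libraries on the same side.

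The remaining selenoproteins were all above 200 TPM in each library. Selenow, a small redox protein, was at 457, 513 and 573 TPM. Selenof, of the endoplasmic reticulum, was at 379, 340.2 and 347 TPM. Selenok, an endoplasmic reticulum membrane protein linked to calcium signals in immune cells, was at 211, 205 and 243.5 TPM. Together with the peroxidases and reductases, the 7 genes with an in-frame TGA thus ran from 21.2 ± 10.1 TPM for Txnrd2 to 608 ± 49.95 TPM for Gpx1. These are levels of whole genes, not of the transcript in which the codon was located. That transcript led in Txnrd1, Txnrd2, Gpx4, Selenof and Selenow. It held a mean of 27.6% of the TPM of Gpx1 (Gpx1-201) and 10.96% of that of Selenok (Selenok-201).

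Ordered by mean TPM, few neighbours could be told apart. A pair of neighbours was called different where the log2 ratio of TPM + 1 had 1 sign in the 3 libraries and a mean above 2 SD, and 9 of 37 neighbouring pairs met this. The clear steps near the top were Txnip over Gpx1, Gpx1 over Gstp1, Gpx4 over Selenof, Selenof over Prdx6 and Prdx6 over Selenok. Further down they were Txn1 over Glrx3, Gss over Glrx5, Gsr over Srxn1 and Gclc over Nqo1. Ftl1 and Fth1, the first and second of the order, did not differ beyond their spread, and the same held for the run from Glrx3 through Sod2, Prdx3, Cat and Sod1 to Hmox2 at 86.2 to 96.3 TPM. Without library 3, 16 neighbouring pairs were told apart, but the rule is easier to meet with fewer libraries. The count rose whichever library was left out.

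Pairs of genes with related roles, listed by function, were compared by the same ratio with the further demand that its mean exceed 1 in size. Of these 20 pairs, 10 were called different. Besides those already given, Prdx1 lay above Prdx2 by 1.31 ± 0.10, Prdx3 above Prdx4 by 1.03 ± 0.03, Gss above Gsr by 1.07 ± 0.50, Gstp1 above Gsto1 by 3.23 ± 0.19 and Selenow above Selenok by 1.22 ± 0.10. Hmox1 against Hmox2 gave -1.40 ± 0.22. Since 1 TPM was added to each level, ratios between low genes come out smaller than they are.

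The pairs not called include both where regulation is often read from a ratio. Nfe2l2 against Keap1 was 0.12, 0.16 and 2.15, a mean of 0.81 ± 1.16. Fth1 against Ftl1 was 0.13, 0.11 and -1.65, a mean of -0.47 ± 1.02. In both, libraries 1 and 2 sat together and library 3 alone made the spread. Besides Sod1 against Sod2 (-0.05 ± 0.53) and Txnrd1 against Txnrd2 (0.67 ± 0.24), the other pairs not called were Txn1 against Txn2 (-0.44 ± 0.08), Prdx5 against Prdx6 (-0.24 ± 0.15), Gpx1 against Gpx4 (0.42 ± 0.14), Gclc against Gclm (-0.21 ± 0.23), Glrx against Glrx3 (0.89 ± 0.25) and Tfrc against Slc40a1 (0.41 ± 0.33).

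**Figure D2:**
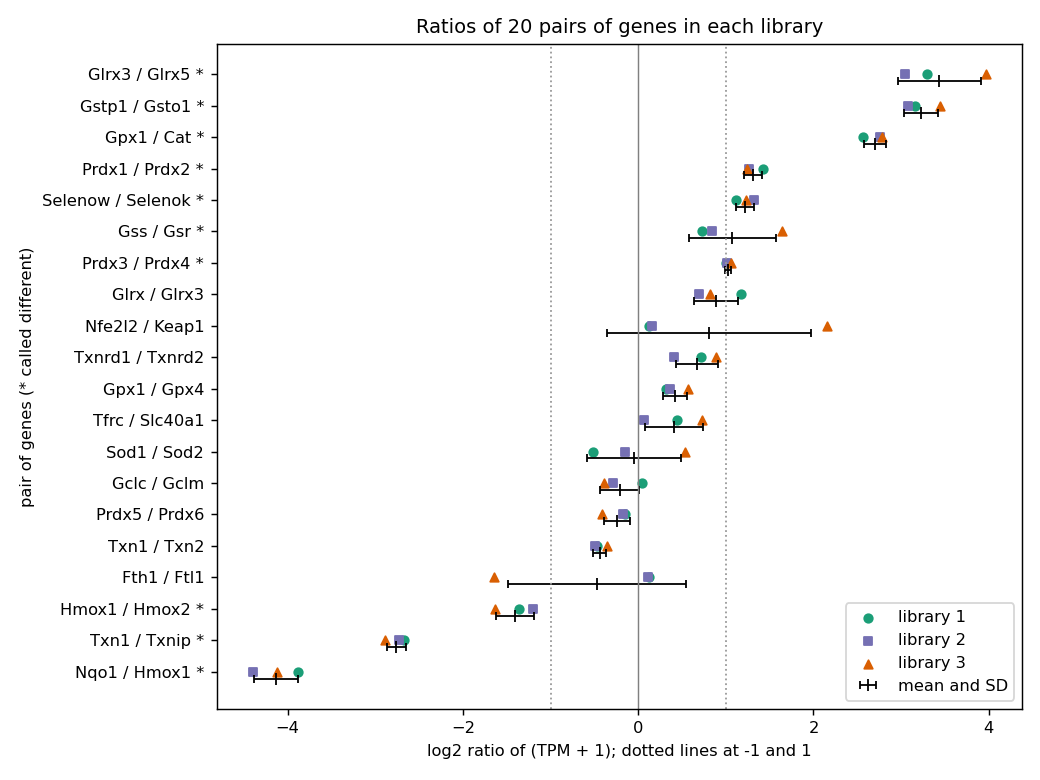
The log2 ratio of TPM + 1 for 20 pairs of genes, with 1 symbol for each library, the mean and SD over the 3 libraries as a bar below, and an asterisk for pairs called different; dotted lines stand at -1 and 1. Most pairs keep their place in the 3 libraries, while library 3 stands apart for Nfe2l2 against Keap1 at 2.15 and for Fth1 against Ftl1 at -1.65.

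The next question was whether the 3 technical libraries gave the same values. Expected counts were compared with Poisson sampling by a chi-square test, after scaling by edgeR's TMM factors, for the 14877 genes whose mean count reached 10. Over all of these, 63.9% differed at a Benjamini-Hochberg adjusted threshold of 0.05, and 33 of the 38 genes did (86.8%). Deep genes pass such a test at small differences, and among protein-coding genes whose mean count reached 50 the share was 75.7%. The list as a whole was no more spread than that: the library furthest from the mean of the others was apart by a median of 0.31 in log2, and by 0.31 over the 10171 such protein-coding genes.

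The 5 genes that did not pass were Gpx4, Gclc, Nqo1, Hmox1 and Glrx3. Their adjusted p-values by this chi-square test with edgeR scaling were 0.054, 0.122, 0.110, 0.928 and 0.993. For Nqo1 and Gclc, with 10 to 111 counts in a library, a difference of this size was not detectable at this depth. Gpx4, Hmox1 and Glrx3 had 563 to 3934 counts in a library, and their levels spread by 2.01% to 2.60% of the mean.

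A limit of size was added to the test: 1 library apart from the mean of the other libraries by a log2 deviation of at least 1, that is 2-fold. Of all genes tested, 18.0% met both, and 7 of the 38 genes did (18.4%). Each gene was assigned to the library furthest from the others. In 5 of the 7 that was library 3, and it was lower (13.2%, where 12.5% of all genes tested had library 3 as the furthest and lower by 2-fold). None of the 38 had library 3 higher by 2-fold, as 1.03% of genes tested did. Among protein-coding genes whose mean count reached 50, 16.1% had 1 library apart by 2-fold, 15.1% library 3 lower and 0.197% library 3 higher. The share of the list was thus near that of genes at large, in each direction.

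The 5 genes furthest apart in library 3 belong to 4 roles and lie on different chromosomes. Keap1 is at 21229730 to 21239361 on chromosome 9, Txnrd1 at 82833951 to 82897712 on chromosome 10, Txnrd2 at 18426384 to 18479073 on chromosome 16 and Gsr at 33652523 to 33698163 on chromosome 8. The log2 deviation of library 3 was -1.69 for Keap1, -1.56 for Txnrd2, -1.45 for Fth1, -1.40 for Gsr and -1.17 for Txnrd1. Fth1 had by far the largest chi-square of the list (6388), from 20196, 19183 and 6807 expected counts. The adjusted p-values by the chi-square test with edgeR scaling were 3.5e-115 for Keap1, 7.5e-42 for Txnrd2, 1.5e-18 for Gsr and 1.9e-81 for Txnrd1. In each of the 5, libraries 1 and 2 lay close together.

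The other genes past 2-fold had library 1 apart. Srxn1 deviated by 1.15 in library 1 and by -1.004 in library 3, from 192, 94 and 63 expected counts, and Gclm by -1.01, from 51, 98 and 87. Below 2-fold, the largest deviations among genes of at least 10 TPM were those of Sod1, at -0.57 in library 1, and of Txnip, at 0.47 in library 3. Txnip had a chi-square of 2361, from its depth of 26342 to 36232 expected counts. Glrx5, at less than 10 TPM, deviated by -0.83 in library 3.

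**Figure D3:**
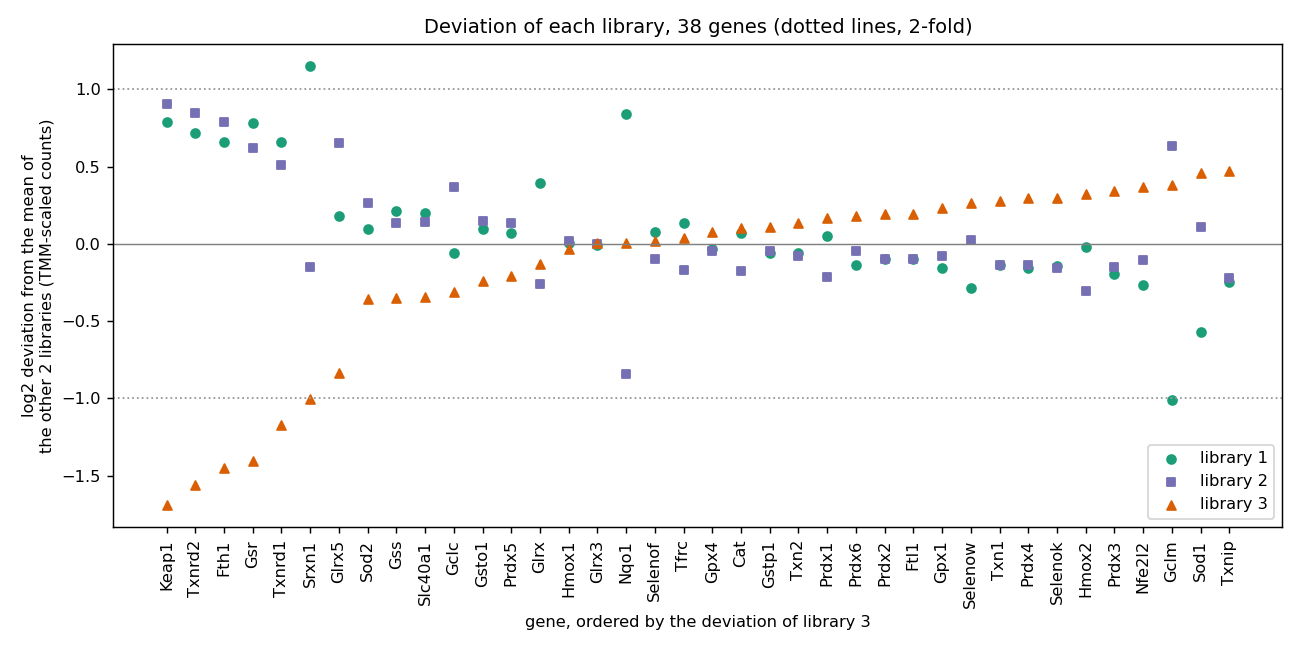
Log2 deviation of each library from the mean of the other 2 libraries for the 38 genes, ordered by library 3, from TMM-scaled counts; dotted lines mark 2-fold. Keap1, Txnrd2, Fth1, Gsr and Txnrd1 lie at -1.17 to -1.69 in library 3, and most other genes lie between the dotted lines in all libraries.

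Library 3 was also the odd one more generally: it was the library furthest apart for 26 of the 38 genes, and for 57.2% of protein-coding genes whose mean count reached 50. When library 3 was left out, 11 of the 38 still differed between libraries 1 and 2, and Gclm alone by 2-fold. Of the 14868 genes tested in that setting, 30.2% differed and 3.73% did so by 2-fold. Of the 5 genes furthest apart in library 3, 4 had a high local GC content, taken from the main transcript of each gene as the GC percent of its most GC-rich stretch of 200 bases. It was 78.5% for Keap1, 71.5% for Txnrd2, 71% for Fth1, 82.5% for Gsr and 63% for Txnrd1, a median of 71.5%, beside a median of 63% in the other 33 genes.

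Across all protein-coding genes whose mean count reached 50, the same pattern was present. At a local GC of 70% or more, a limit chosen after seeing the data, 38.6% of 3092 genes had library 3 as the furthest library and lower by 2-fold, and 4.78% of 7073 genes below it did. Of the 38 genes, 6 had a local GC of 70% or more and in 4 of these library 3 was the furthest and lower by 2-fold. The others of the 6 were Srxn1, where library 3 was also lower by 2-fold (-1.004) but library 1 was further apart, and Gclc, at -0.31.

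The relation had no single direction. The median deviation of library 3 was -0.84 at 70% to 75% and -0.97 at 75% to 80%, and it returned to -0.17 at 80% to 85% (393 genes) and 0.12 at 85% to 90% (95 genes). Keap1, Txnrd2 and Fth1 lay within the middle 80% of genes in their bin of 5% of GC. Gsr and Txnrd1 lay below that of their bins, where the lower bounds were -1.13 and -0.33. Spearman's rho between local GC and the deviation of library 3 was -0.35 over the 38 genes and -0.53 over 9304 protein-coding genes with at least 100 counts, as a description across genes, which share the same libraries. For transcript length in place of local GC, rho was also -0.35 over the 38 genes, and -0.18 over the 9304.

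When the local GC trend was removed from each library, an alternative added after seeing the data, the deviations of library 3 became -0.99 for Keap1, -0.82 for Txnrd2 and -0.77 for Fth1. Those of Gsr and Txnrd1 stayed past 2-fold, at -1.08 and -1.18. Elsewhere in the list some deviations of library 3 grew, as from 0.28 to 0.68 for Txn1 and from 0.37 to 0.65 for Nfe2l2. Others shrank, as from 0.47 to 0.40 for Txnip. With the local GC trend removed, 2 of the 38 genes and 10.7% of all genes tested met the 2-fold rule. A trend on the GC percent of the whole main transcript was also removed, in place of the local one. The 2-fold rule was then met by 6 of the 38 genes and 14.6% of all genes tested. Library 3 there deviated by -1.02 for Keap1, -1.22 for Txnrd2, -1.20 for Fth1, -1.21 for Gsr and -0.99 for Txnrd1.

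**Figure D4:**
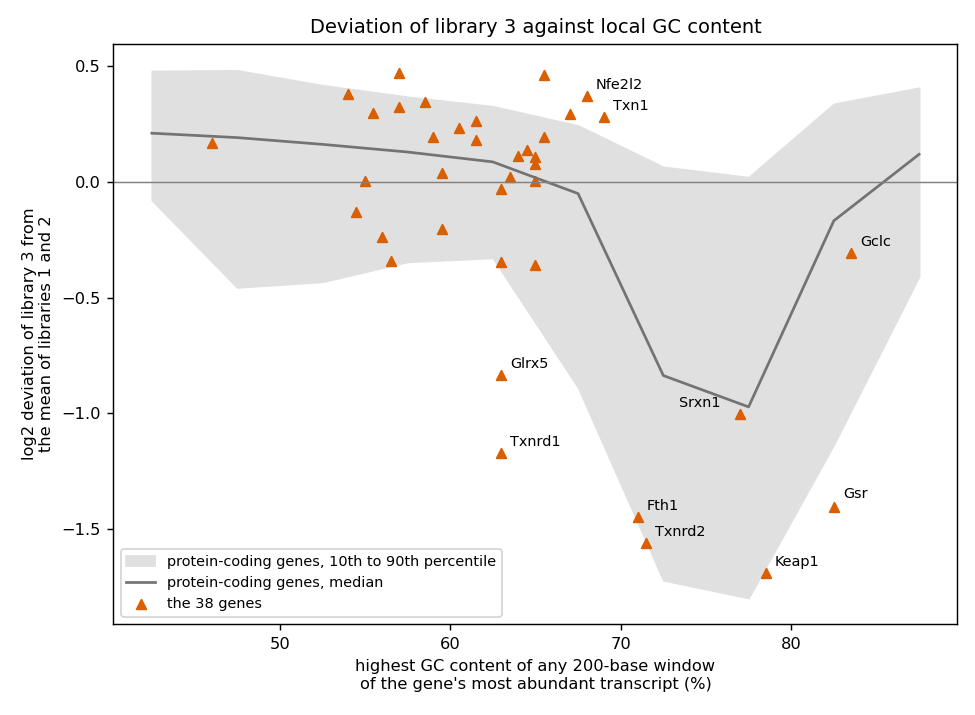
Log2 deviation of library 3 from the mean of libraries 1 and 2 against local GC content in percent for the 38 genes (triangles), over the median (line) and the 10th to 90th percentile (grey band) of protein-coding genes with at least 100 counts in bins of 5%. The median falls to -0.97 between 75% and 80%, Keap1, Txnrd2 and Fth1 lie at the lower edge of the band, and Gsr, Txnrd1 and Glrx5 lie below it.

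The second gene table, which holds whole-number counts of the same libraries for the older GENCODE M4 annotation by a counting rule that the sources do not give, gave another picture of the abundant genes. There Fth1 had 1085, 1092 and 1020 counts, and library 3 deviated by 0.06 in place of -1.45. Keap1 was still lower in library 3, with 880, 838 and 274 counts, and Srxn1 had 17, 13 and 1. Of the 38 genes, 19 differed between libraries in that table (56.8% of 10936 genes tested did), and all 19 were among the 33 of the first. With the 2-fold limit, Gsr, Keap1, Txnrd1, Txnrd2 and Srxn1 were called in both tables, Fth1 and Gclm in the first only, and Glrx5 in the second only.

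The gap between both tables grew with depth, and more for these genes than for protein-coding genes at large. The median ratio of second to first counts was 0.473 for the 8 genes with 10 to 500 counts and 0.446 for the 15 with 500 to 2000. It was 0.131 for the 10 with 2000 to 5000 and 0.0789 for the 5 above that. Over protein-coding genes the 4 medians were 0.505, 0.478, 0.405 and 0.222. The cause of the gap was not tested.

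The abundant genes also had nearly equal second counts in the 3 libraries, although the library totals differed by up to 1.25-fold. Ftl1 had 294, 277 and 279, Txn1 491, 483 and 484, Gpx4 235, 226 and 230, Selenow 513, 504 and 508, Gstp1 324, 320 and 326, and Txnip 2461, 2457 and 2492. Among the 15 genes with a mean first count of at least 2000, 13 had a highest and a lowest second count within 1.1-fold, with a median of 1.04. Of these 15 genes, 14 differed between libraries in the first table and 5 in the second. No share over all genes of this depth is given, so these counts are not set apart from those of genes at large. The ratio of Ftl1 to Fth1 was 0.917, 0.928 and 3.14 in TPM and 0.271, 0.254 and 0.274 in second counts.

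**Figure D5:**
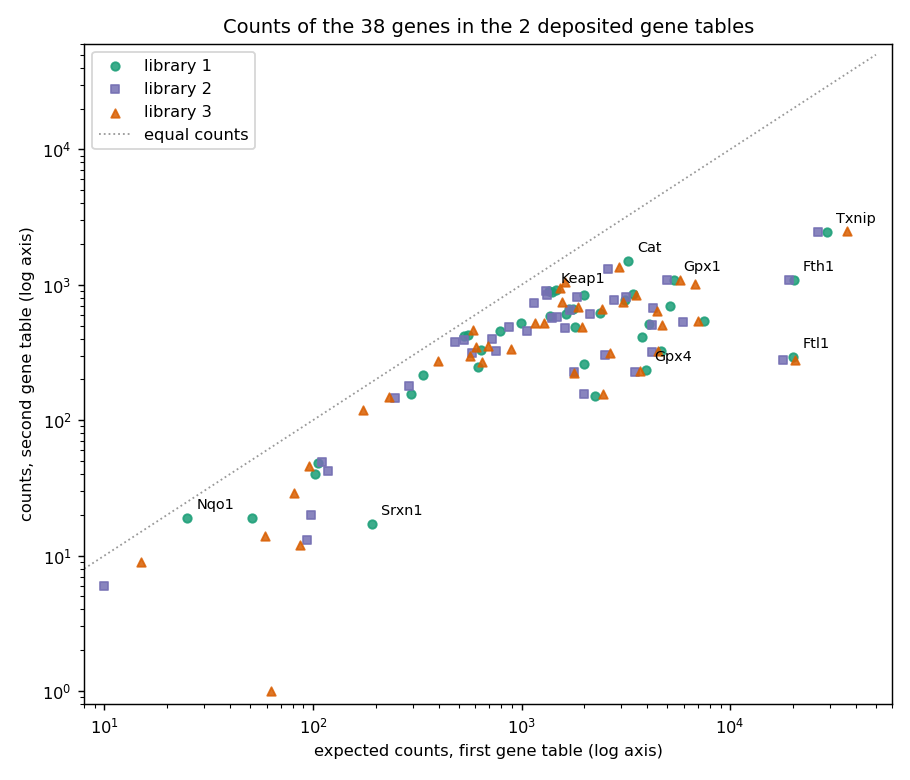
Counts of the 38 genes in the second gene table against expected counts in the first, both on log axes, with 1 symbol for each library and equal counts as a dotted line. Most abundant genes lie far below the line, among them Ftl1 with second counts of 277 to 294 and Fth1 with 1020 to 1092, and Srxn1 lies far below it at low counts, with 17, 13 and 1.

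For all that, the deviation of library 3 was ordered alike in both tables, with a Spearman rho of 0.82 across the 38 genes and 0.91 across 9066 protein-coding genes, which share the reads of the same libraries. Of the 10 pairs called different in TPM, 3 changed sign in CPM of the second table, which are not scaled for length: Prdx1 against Prdx2 gave -0.23, Gpx1 against Cat -0.35 and Gstp1 against Gsto1 -0.29.

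The transcript tables split each gene among its annotated transcripts, as model estimates from short reads. The leading transcript held a median of 79.7% of its gene's TPM, and more than 90% in 11 of the 38 genes. In 32 genes it was a coding transcript. In the other 6 it was not: Sod2-207, a processed transcript, held 70.2 ± 1.75% of Sod2, Prdx6-208, annotated for nonsense-mediated decay, 60.3 ± 1.73% of Prdx6, and Selenok-203, of the same class, 80.7 ± 1.22% of Selenok. Prdx2-205, a retained intron, held 40.5 ± 3.12% of Prdx2, and the processed transcripts Glrx5-202 and Gsto1-204 held 80.5 ± 3.40% and 52.8 ± 6.18% of their genes.

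By share of counts in place of TPM, which does not favour short transcripts, the leader was not coding in 4 genes. For Prdx2 it became the coding Prdx2-208, at 44.5 ± 3.53% of counts, and for Gsto1 the coding Gsto1-201, at 48.6% of counts. The leading transcript was the same by both measures in 34 of 38 genes.

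Some genes had another transcript mix in each library. Gss-201 held 55.4% of Gss TPM in library 1 and 23.04% and 21.02% in libraries 2 and 3, while Gss-203 held 24.7%, 58.0% and 60.9%, at 230.6 to 335 counts for the gene. Fth1-201, the transcript with the hairpin shown above, held 80.8%, 89.6% and 95.5% of Fth1 TPM, and the short coding Fth1-206 held 17.1%, 7.91% and 1.43%. Keap1-205 held 60.4%, 65.2% and 78.7% of Keap1, and Keap1-204 the smaller shares of 25.7%, 21.01% and 13.02%. These shares carry no test, and the division of short reads between overlapping transcripts adds error that the 3 libraries do not show.

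Genes of the same pathways outside the list were read through 5 further lists of 71 genes, all of them measured. Of these, 59 were above 1 TPM in each library. Of 63 that could be tested, 34 differed between libraries. Past the 2-fold limit were 12 genes. Library 3 was the furthest library and lower in 11 of them, and in the other one, Selenot, library 1 was the furthest and lower. Over all 14877 genes tested, 63.9% differed, 18.0% were past the 2-fold limit and 12.5% had library 3 furthest and lower by 2-fold. These shares are also the ones to set beside the counts of each list below. The lists were chosen with results of these data known and are described without a test.

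In the list of NRF2 partners and NADPH supply, 12 of 15 genes were above 1 TPM and 7 of 12 tested differed. Sqstm1, the autophagy receptor that binds Keap1, was at 376, 341 and 123 TPM, a deviation of -1.57 in library 3. Taldo1 and Tkt of the pentose phosphate pathway were at 282 ± 12.4 and 204 ± 5.56 TPM, and both were among the 7 that differed, by less than 2-fold. Lower by 2-fold in library 3 were also Nfe2l1, an NRF2 relative (-1.30), Mafk, a DNA-binding partner of NRF2 (-1.34), and Slc3a2, a chain of the cystine transporter (-1.43). Local GC was 72% for Nfe2l1, 71% for Mafk, and 70.5% for both Slc3a2 and Sqstm1. Slc7a11, the other chain of that transporter, was under 1 TPM in each library, as were Maff and Me1.

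In the further glutathione list, 13 of 16 genes were above 1 TPM, 3 of 14 tested differed and none by 2-fold. Mgst2, a microsomal transferase, was highest at 205 ± 17.3 TPM, then Gstt2 at 57.4 ± 0.09 and Glrx2 at 42.9 ± 14.1. Chac1 was under 1 TPM in each library and Gpx8 was at 0. In the further thioredoxin and superoxide list, 5 of 7 genes were above 1 TPM and 4 of 6 tested differed. Ccs, the copper chaperone of Sod1, was at 123 ± 5.21 TPM, Txndc17 at 94.7 ± 8.06 and the methionine sulfoxide reductase Msra at 33.7 ± 3.85. Txnrd3 was low, at 1.28, 1.17 and 0.36 TPM, with library 3 lower by 2-fold and a local GC of 79%. Sod3 was under 1 TPM in each library.

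In the list of selenoprotein synthesis and further selenoproteins, 10 of 11 genes were above 1 TPM, 8 of 11 differed between libraries, and 3 genes of synthesis were lower by 2-fold in library 3. Sephs2, which makes the selenium donor, was at 25.9, 23.4 and 5.38 TPM, a deviation of -2.17. Eefsec, the elongation factor for selenocysteine, was at 45.2, 50.2 and 15.7 TPM (-1.53), and Pstk, the kinase of the selenocysteine tRNA, at 43.7, 46.7 and 16.9 TPM (-1.16). Their local GC was 74%, 70.5% and 70%. Selenot was lowest in library 1 and highest in library 3, at 14.2, 26.8 and 40.8 TPM, with deviations of -1.31 and 1.12. The highest of the list were Selenop at 181 ± 29.4 TPM, Selenos at 129 ± 8.24 and Selenoh at 73.3 ± 1.56, and none of the 3 was apart by 2-fold. The selenoproteins of the main list other than both thioredoxin reductases, namely Gpx1, Gpx4, Selenow, Selenof and Selenok, were not lower in library 3 by 2-fold.

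Of the further iron and heme genes, 19 of 22 were above 1 TPM and 12 of 20 tested differed. Pcbp2, a chaperone that delivers iron, was at 101 ± 8.501 TPM, Ncoa4, the receptor that sends ferritin to autophagy, at 87.4 ± 16.7 and Blvra, a biliverdin reductase, at 64.0 ± 2.88. Among the genes lower by 2-fold in library 3 were Iscu, the scaffold of iron-sulfur clusters (-1.54), and Fech, which inserts iron into heme (-1.55). Their local GC was 75.5% and 58%. Steap3 and Heph were under 1 TPM in each library.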

How the data were processed

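Expected counts, TPM and FPKM per gene and per transcript, and the percent of a gene's TPM that each transcript holds, were deposited by the authors and have the columns that RSEM writes, per the file headers. They rest on mm10 and GENCODE M21, per the text deposited with the files. The authors also deposited whole-number counts per gene on GENCODE M4. Per the labels, fragments were sheared on a Covaris instrument to a size range of 100 to 300. The sources used here give no aligner and no counting rule.

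The 38 genes, their pathway lists, marker lists and pairs, and the tests were chosen with earlier results of these data known. The design allowed no comparison of conditions, so edgeR's quasi-likelihood test was not used. Expected counts were rounded, and the 3 libraries were compared with Poisson sampling by a Pearson chi-square test (2 degrees of freedom, SciPy 1.17.1) on library sizes scaled by TMM (edgeR 4.0.16), for the 14877 genes whose mean count reached 10, with Benjamini-Hochberg adjustment over all of them at 0.05. Deviations of 1 library from the mean of the others are in log2 of scaled counts with a prior count of 0.5. Beyond counting, the libraries varied by 27.8% per gene in the first table and 26.3% in the second (edgeR's common dispersion, as a coefficient of variation). On libraries simulated by Poisson sampling the test recovered 51.0% of 98 genes changed by 1.5-fold and 78.6% of 98 changed by 3-fold, and called 11 unchanged ones, of 14876 genes. The simulated libraries lacked the variation beyond counting of the real ones, so the few false calls do not describe the real libraries. Ratios of pairs used TPM with a pseudocount of 1. Transcript sequences came from GENCODE M21 and promoters from RefSeq (GRCm38.p6).

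Named genes are all 38, with most room for the 8 highest, those under 1 TPM in a library and the 6 of at least 10 TPM with the largest deviation. Of each pathway list they are the 3 highest, the 2-fold ones and those under 1 TPM in each library. One gene that this rule takes is not reported here. Alternatives were DESeq2 1.42.0 size factors or totals, filters of 50 counts or none, the second table, FPKM, TPM over nuclear protein-coding genes, other pseudocounts and detection limits, shares of counts, GC trends (lowess, fraction 0.3, genes with at least 100 counts) and leaving out each library.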

Additional observations from a re-analysis of the deposited data

How the results depend on the processing

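No paired analysis was possible because the 3 libraries form 1 group. The 33 genes that differed between libraries became 19 in the second table (56.8% of all genes tested there). They were 11 to 32 when a library was left out, with 11 without library 3 (30.2% of all genes tested). Under DESeq2 size factors, total counts, both other filters and both GC trends they were 32 to 34. The 7 genes past 2-fold became 2 with the local GC trend removed, added after seeing the data (10.7% of all genes tested). They were 1 to 6 when a library was left out, with Gclm the single one without library 3 (3.73% of all genes tested). Under the other settings they were 6 or 7. Fth1 reversed, with a deviation of 0.064 in library 3 in the second table. The 9 neighbouring pairs told apart were 10 to 16 with a library left out, and 16 without library 3. The 10 related pairs called were 7 in the second table, and these 7 were not all among the 10. Of the 20 pairs, 3 reversed there: Prdx1 against Prdx2 (-0.23), Gpx1 against Cat (-0.35) and Gstp1 against Gsto1 (-0.29). Another 2 were weaker and 2 were stronger. Under pseudocount 0.1, FPKM, CPM of the first table or a library left out, 9 or 10 pairs were called. Gss against Gsr was lost with pseudocount 0.1. The median level, 93.5 TPM as a mean over libraries, was 60.9 in FPKM, 114 over nuclear protein-coding genes, and 91.6 to 94.7 TPM with a library left out. The leading transcript's median share of 79.7% was 83.0% by counts. At limits of 5 and 0.5 TPM, 33 and 38 genes were detected. The causes of these shifts were not tested. One mouse and 3 technical libraries give no error between animals, and genes near 10 counts, such as Nqo1, allow only large differences to be seen.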
